A study of Mus musculus with 64 samples.

Results

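The 33 genes described here encode the Mediator complex and its dissociable kinase module, and they were taken from the count table by mouse gene symbol (all 33 symbols were found, among 55335 genes in the table). By their place in the complex they fall into the head (11 genes), the middle (9), the backbone (Med14), the tail (5) and the kinase module (7: Med12, Med12l, Med13, Med13l, Cdk8, Cdk19 and Ccnc). Med27, Med28, Med29 and Med30 were counted with the head, although structural work also places some of them in the upper tail. All 33 genes passed the filter on low counts in both sets of libraries, and the lowest count of any of them in any library was 3.

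Mediator is the large coactivator that carries signals from DNA-bound transcription factors to RNA polymerase II (Pol II) at promoters. Its tail contacts activators, its head and middle contact Pol II and the initiation factors, and Med14 runs through the complex and holds these parts together. The kinase module, built from cyclin C (Ccnc), CDK8 or its paralog CDK19, MED12 or MED12L and MED13 or MED13L, binds the core reversibly, and its bound state is incompatible with Pol II at the same surface. In embryonic stem cells Mediator is known for its occupancy at the enhancers of pluripotency genes, together with cohesin.

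The cells were V6.5 mouse embryonic stem cells grown in a medium with the GSK3 inhibitor CHIR99021 and the MEK inhibitor PD0325901. In 12 degron lines 1 Pol II subunit each (RPB1 to RPB12) could be destroyed as a protein on addition of the auxin indole-3-acetic acid (IAA), and wild-type (WT) cells were treated alongside. Every group, controls included, had been given doxycycline for 12 h (2 µg/ml in the sample protocol, 1 µg/ml in the series text) to induce OsTir1, the plant receptor that auxin needs. WT and the 12 lines were sequenced untreated and after 12 h in 500 µM IAA (52 libraries, 26 groups of 2), and RPB1, RPB3 and RPB6 also at 0 h and 1 h of IAA (12 libraries, 6 groups of 2). The labels do not say whether WT cells carried OsTir1, how many clones stand behind a line, or whether both libraries of a group were grown separately, and p-values therefore measure the spread between these libraries, which may be technical. The degraded target is a protein, and mRNA counts do not check its loss.

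A library of the 12 h set held 3399838 to 7164928 counts, and one of the 1 h series 8598431 to 13281252. All 10 embryonic stem cell markers had counts in the untreated libraries, with a summed level of 4724 to 7024 CPM (counts scaled to a common library size), against 5.39 to 22.7 CPM (5.51 to 30.7 CPM after 12 h of IAA) for 9 fibroblast markers, 3 of which had no count in any untreated library. After 12 h of IAA the stem cell markers summed to 3324 to 9546 CPM. In each of RPB1, RPB2, RPB5, RPB6 and RPB8, the lines with the most Mediator genes called, 8 of the 10 fell. Of all genes 30.5%, 34%, 28.1%, 33.4% and 30.2% fell there. The median log2 fold changes of the 10 lay between -2.85 and -0.99. The other 2 rose in all of these lines but RPB1, where they were not called. In RPB7, RPB3 and RPB9 none rose, and 6, 5 and 4 fell (21.1%, 23.3% and 18% of all genes). In RPB10 3 rose and 3 fell (18.2% and 21.2% of all genes), and in RPB11 3 and 1 (10.6% and 13.1%). In RPB4 2 rose and in RPB12 1 (1.13% and 2.14% of all genes), and none fell. In WT 3 of 10 fell (0.842% of all genes). Of the 3 fibroblast markers with enough counts to test, 1 rose in each of WT, RPB1, RPB2, RPB8 and RPB9, 2 rose in RPB6, and 1 fell in RPB1 and in RPB9. Col1a1, singled out after its values were seen, rose in RPB1 from 1.20 and 1.26 CPM to 16.3 and 17.0 CPM. The part of these shifts in the changes of Mediator genes was not tested. The 6 primitive endoderm markers summed to 3.20 to 22.9 CPM untreated and 1.33 to 22.01 CPM after 12 h of IAA. CPM here are scaled with TMM, which assumes that most genes keep their share, so "rose" and "fell" mean a change of adjusted p under 0.05 (edgeR quasi-likelihood test, Benjamini-Hochberg adjustment over all genes tested) relative to the rest of the transcriptome. Scaling to mitochondrial-genome mRNAs moved the all-gene median of the log2 fold change to -2.30 in RPB2, -2.08 in RPB6, -1.44 in RPB8, -0.47 in RPB1 and -0.45 in RPB5, from -0.19, -0.13, 0.04, 0.09 and 0.08 under TMM. In RPB3 it moved to 0.76, where the mitochondrial share was 0.575% in IAA replicate 1 but 1.78% in replicate 2.

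The promoters of 5 genes are shown because the results turn on them. Med16 and Med11 fell together in 5 lines, Med6 and Med4 had the lowest log2 fold changes after RPB2 degradation, and Cdk8 fell in more lines than any other member. Of these 10 falls of Cdk8, 7 kept their call when any 1 library was left out, as many as for Med6. The pair Med16 and Med11 was singled out after its values were seen. With the WT response subtracted, Med16 was not called in RPB3 (-0.52) and Med11 was not called in RPB11 (-0.75). Each run is the 250 bases before the transcription start (RefSeq, build GRCm38.p6, gene strand, 5′ to 3′). Capitals mark any of the TATA box (letters TATAAA), the NF-Y box (letters CCAAT), the Sp1-type box (letters GGGCGG), the ETS-type motif (letters CCGGAAG) and the E-box (letters CACGTG), searched on both strands, and none of these motifs contains another. The windows lie at chr10:79908939-79909188 on the minus strand (Med16), chr11:70451668-70451917 on the plus strand (Med11), chr14:73509799-73510048 on the plus strand (Med4), chr12:81595009-81595258 on the minus strand (Med6) and chr5:146231000-146231249 on the plus strand (Cdk8).
Med16: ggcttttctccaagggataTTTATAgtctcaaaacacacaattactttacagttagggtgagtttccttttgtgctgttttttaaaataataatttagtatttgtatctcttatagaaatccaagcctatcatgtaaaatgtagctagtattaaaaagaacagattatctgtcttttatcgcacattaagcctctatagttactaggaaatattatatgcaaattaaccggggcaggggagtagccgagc
Med11: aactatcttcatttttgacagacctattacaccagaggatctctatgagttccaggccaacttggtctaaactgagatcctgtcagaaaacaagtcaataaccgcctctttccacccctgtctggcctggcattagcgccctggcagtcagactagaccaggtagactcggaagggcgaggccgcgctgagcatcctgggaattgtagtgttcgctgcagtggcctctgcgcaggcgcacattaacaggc
Med4: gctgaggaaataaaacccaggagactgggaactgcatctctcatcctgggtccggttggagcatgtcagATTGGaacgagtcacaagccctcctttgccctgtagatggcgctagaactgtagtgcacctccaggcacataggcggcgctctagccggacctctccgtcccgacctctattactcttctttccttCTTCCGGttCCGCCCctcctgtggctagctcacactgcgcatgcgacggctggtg
Med6: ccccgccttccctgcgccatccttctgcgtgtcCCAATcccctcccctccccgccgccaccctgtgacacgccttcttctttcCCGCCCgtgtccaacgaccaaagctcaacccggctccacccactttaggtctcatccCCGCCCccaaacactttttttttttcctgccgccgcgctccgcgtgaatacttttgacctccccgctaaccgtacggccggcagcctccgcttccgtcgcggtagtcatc
Cdk8: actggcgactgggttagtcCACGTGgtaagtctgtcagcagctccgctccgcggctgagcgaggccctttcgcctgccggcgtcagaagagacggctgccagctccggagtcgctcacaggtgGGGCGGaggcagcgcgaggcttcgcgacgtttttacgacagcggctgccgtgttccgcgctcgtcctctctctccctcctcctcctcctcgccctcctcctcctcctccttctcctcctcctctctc

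Of the 33 genes, 28 matched the RefSeq promoter table. The Sp1-type box was present in 18 of these 28 (64.3%) and in 32.9% of 27025 promoters of the same length. The NF-Y box was present in 11 (39.3%, against 34.5% of all), the ETS-type motif in 4 (14.3%, against 7.1%), the TATA box in 3 (10.7%, against 13%) and the E-box in 2 (7.1%, against 6%). Among the printed windows GC content was lowest for Med16, at 33.2%, where the single match was a TATA box on the opposite strand 231 bases before the start, and it was 52.8% for Med11, which held none of the 5 motifs. Med4 had 57.6%, with 1 NF-Y box, 1 Sp1-type box and 1 ETS-type motif. Med6 had a GC content of 63.2% with 1 NF-Y box and with 2 Sp1-type boxes 167 and 110 bases before the start, and Cdk8 had 66.4% with 1 such box at 127 bases and an E-box at 231 bases. The median over the 28 windows was 56.8%, against 52% over all promoters. A match is a description of the letters and not a mapped binding site.

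Levels before auxin are given first. Per kilobase of annotated exon, Med19 of the middle was the highest, with a median of 49.8 CPM per kb over the 26 untreated libraries (range 41.9 to 61.1). Med9, also of the middle, followed at 33.5 (24.6 to 51.1) and Med30 of the head at 26.5 (19.1 to 33.8), so that the ranges of these neighbours overlapped. Med12l was the lowest at 0.417 CPM per kb (0.134 to 1.75), below Med20 at 3.82 (2.97 to 7.36), with no overlap. This order depends on the length used, since all annotated exons can far exceed the longest coding transcript. The lengths were 3.523 kb against 814 bases for Med21, 4.491 kb against 913 bases for Med10 and 7.324 kb against 2054 bases for Med20. For 25 of the 33 genes the highest untreated line mean was under 2 times the lowest.

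Med12l, the paralog of Med12, differed most between untreated lines. Its untreated libraries held 14.7 and 22.4 CPM in WT, 20.2 and 17.4 CPM in RPB11 and 13.1 and 12.3 CPM in RPB9, but 1.71 and 2.28 CPM in RPB12 and 3.72 and 2.07 CPM in RPB2. The mean in RPB11 was thus 9.43 times that in RPB12. The gene covers chr3:59005825-59318682 on the plus strand of mm10 and holds P2ry12, P2ry13, P2ry14 and other genes on its opposite strand, and the strand setting of the counting is not given, so part of its count may belong to them.

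Under TMM the Mediator mRNAs did not move as a block after 12 h of IAA: in most lines some members rose and others fell. On mitochondrial mRNAs, by contrast, the called members were 0 higher and 31 lower in RPB2 and in RPB6, as described below. In RPB2, 12 rose and 18 fell of 33 (27.9% and 34% of all 17928 genes tested were called in these directions), and in RPB6, 12 rose and 17 fell (background 27.3% and 33.4%). The numbers were 13 and 14 in RPB8 (31.5% and 30.2%), 9 and 14 in RPB1 (35.8% and 30.5%) and 10 and 12 in RPB5 (31% and 28.1%). Among these lines the share of members called was above that of all genes in both directions in RPB2, RPB6 and RPB8. In RPB1 the members that rose, 9 of 33, were a smaller share than the 35.8% of all genes.

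Fewer members moved in the other lines. In RPB10, 9 rose and 11 fell (background 18.2% and 21.2%), in RPB9, 10 and 9 (16.8% and 18%), in RPB7, 9 and 7 (20.2% and 21.1%), in RPB3, 8 and 8 (24.4% and 23.3%) and in RPB11, 5 and 5 (10.6% and 13.1%). In RPB9 and RPB10 too the share of members called was above that of all genes in both directions. In RPB11, with 5 members in each direction, it was little above. For the falls in RPB7 and both directions in RPB3 it was close to that of all genes. The shares were not tested against those of all genes. In RPB12 a single member, Med14, fell (2.14% of all genes rose and 2.65% fell). No member was called in RPB4 (1.13% and 0.948%) or in WT (0.803% and 0.842%) by edgeR or by DESeq2. At an unadjusted p under 0.05, 3 members in RPB4 and 5 in WT had passed. WT log2 fold changes lay between -0.51 (Med12l) and 0.27 (Cdk19), and those of RPB4 between -0.31 and 0.39.

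**Figure D1:**
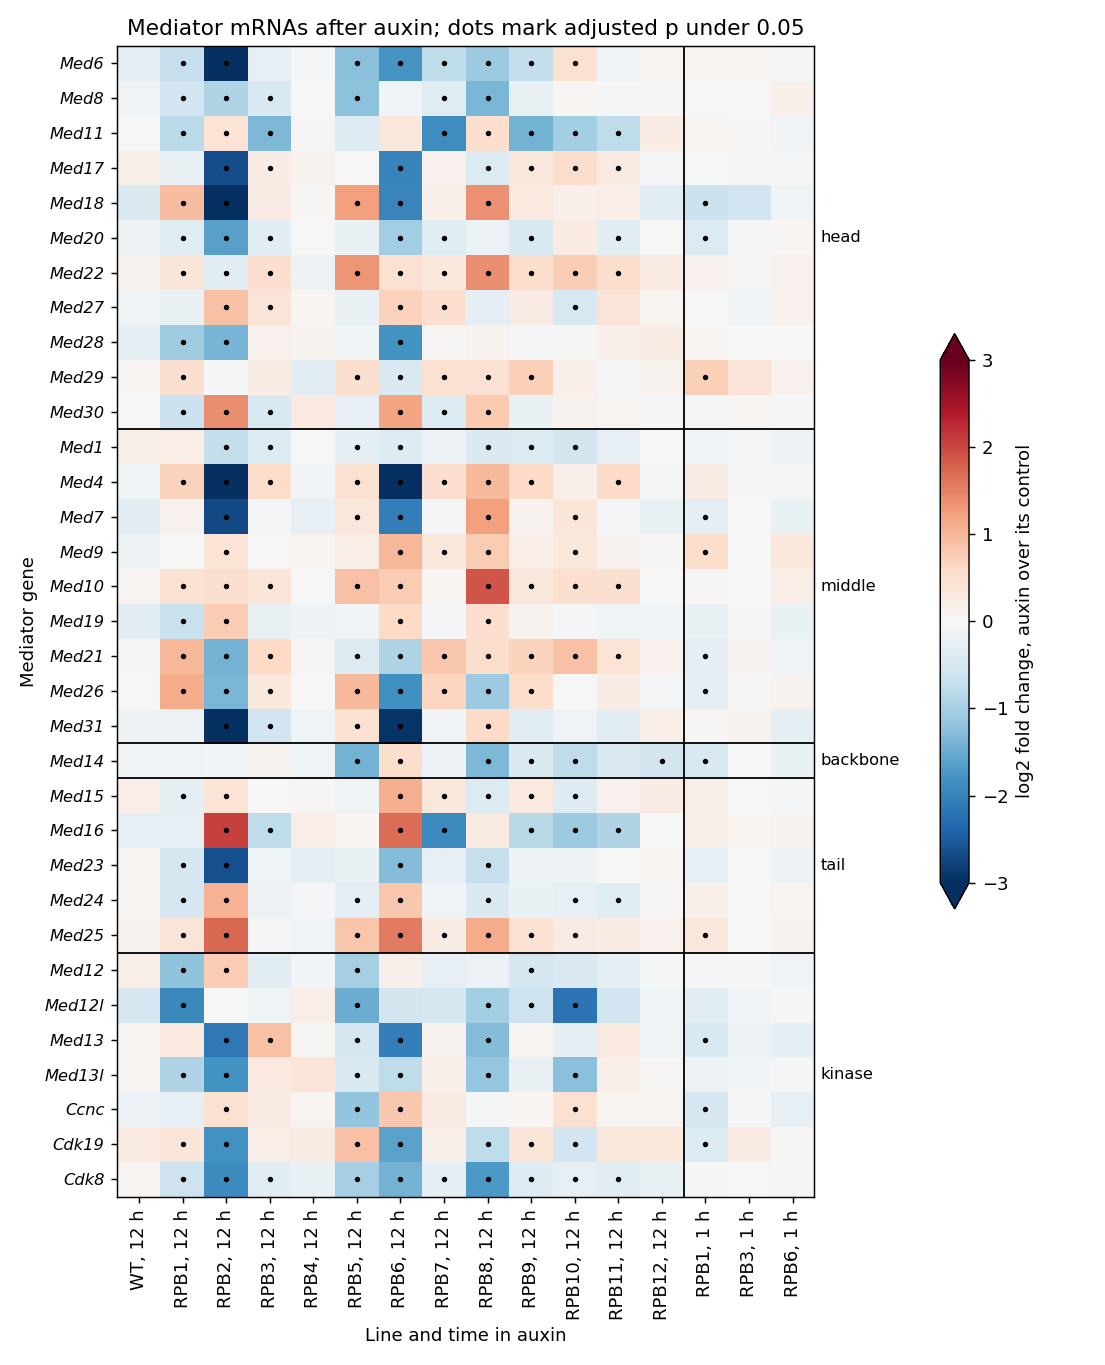
Log2 fold changes of the 33 genes (vertical axis, ordered by module) in the 16 treatment comparisons (horizontal axis), in colour from blue (lower after auxin) to red (higher), with a dot where the adjusted p was under 0.05. The columns of WT and RPB4 hold no dot and that of RPB12 holds 1. The red cells of RPB2 and RPB6 that carry a dot turn negative when libraries are scaled to mitochondrial mRNAs.

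Each of the 33 genes was called in at least 1 line at 12 h. Of these, 22 rose in some lines and fell in others, 8 fell in some and rose in none, and 3 (Med9, Med10 and Med25) rose in some and fell in none. The direction for those 3 depends on the scaling, since on mitochondrial mRNAs Med9 turned negative in 4 of its 5 lines, Med10 in 3 of 9 and Med25 in 6 of 8. The median log2 fold change over the 33 genes was -0.72 in RPB2 and -0.44 in RPB6, against -0.19 and -0.13 over all genes. It lay between -0.20 and 0.08 in the remaining lines. As a share of all counts, the members went from 0.184% to 0.110% in RPB2 and from 0.189% to 0.140% in RPB6 (means of 2 libraries), while the 12 h IAA libraries of the other lines lay between 0.182% and 0.227%.

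Directions depend on the scaling. On mitochondrial mRNAs the members called were 0 higher and 31 lower in RPB2 and in RPB6, 0 and 27 in RPB8, 0 and 20 in RPB1, 1 and 19 in RPB5, 0 and 7 in RPB7 and in RPB10, 0 and 3 in RPB9 and none in RPB11, while in RPB3 they were 19 higher and 0 lower. On total counts they were 3 higher and 25 lower in RPB2, 5 and 19 in RPB6, 14 and 2 in RPB3, 12 and 12 in RPB1, 10 and 4 in RPB7, 11 and 6 in RPB9, 10 and 7 in RPB10 and 9 and 3 in RPB11. Within RPB2 the members ranged from -4.13 (Med6) to 2.04 (Med16), a spread that a shift common to all genes does not alter. In these bulk libraries fewer cells of a type and less RNA per cell cannot be told apart.

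Of the 225 called changes in the 16 treatment comparisons, 147 kept their call in every fit that left out 1 library of the comparison. None of the 225 changed sign in such a fit. The number of members called dropped by more than 1.5 times in RPB3 without untreated replicate 1 (16 to 10), in RPB7 without IAA replicate 2 (16 to 10), in RPB9 without untreated replicate 1 or IAA replicate 1 (19 to 12) and in RPB11 without IAA replicate 2 (10 to 6). Without IAA replicate 1 of RPB3, the library with few mitochondrial counts, 11 members were called. Among the members described by counts and single values, 2 of 7 calls of Med20 at 12 h held in this way, 1 of 7 of Med15, 1 of 6 of Med29, 2 of 5 of Med27, 2 of 5 of Med9, 4 of 7 of Med17, 3 of 5 of Med7 and 5 of 7 of Med24. When the WT response was subtracted, 61 of the 213 calls at 12 h were lost. Between lines, RPB2 and RPB6 called 30 and 29 members, of which 27 were shared (27 of 30 and 27 of 29) and 26 had the same direction, the exception being Med22. RPB1 and RPB2 shared 21 called members (21 of 23 and 21 of 30), of which 12 moved in opposite directions. With this many members called in each line, a large overlap is fixed in advance, so the shared numbers say little on how alike the lines were. The same overlap over all genes is not given here.

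The head of the complex, which docks Pol II, held the lowest fold change of any member. Med6, a head subunit at the contact with Pol II, was at 38.2 and 52.3 CPM in untreated RPB2 cells and at 2.38 and 2.80 CPM after IAA. Its log2 fold change was -4.13 ± 0.26 (SE, n = 2 against 2, adjusted p = 1.52e-18 by edgeR). Both IAA libraries were far below both controls, at 5 and 6 counts. Med6 fell in 7 lines in all, and all 7 calls held with each library left out. In RPB5 it went from 35.1 and 32.4 CPM to 13.8 and 14.4 CPM, -1.25 ± 0.15 on the log2 scale (adjusted p = 2.01e-09). In RPB7 the values were 38.0 and 47.9 CPM against 24.9 and 25.2 CPM (-0.77 ± 0.13, adjusted p = 3.96e-06), and in RPB9 31.0 and 31.7 CPM against 18.8 and 19.3 CPM (-0.72 ± 0.14, adjusted p = 6.17e-05). With the WT response subtracted Med6 was not called in RPB9 (-0.46) or RPB1 (-0.44). RPB10 differed, with a log2 fold change of 0.47 that was not called without untreated replicate 1 (0.39). The gene lies at chr12:81573557-81595008 (mm10, minus strand) and overlaps the gene model Gm16570 on the same strand, so its counts are uncertain to that extent.

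Med17, the scaffold of the head, and the pair Med18 and Med20, its mobile jaw, fell with Med6 in RPB2 and RPB6. Log2 fold changes in RPB2 and RPB6 were -2.65 and -1.99 for Med17, -3.20 and -1.98 for Med18 and -1.63 and -1.04 for Med20. All 6 calls held with each library left out. Elsewhere Med18 went the other way. It rose from 12.5 and 17.6 CPM to 36.4 and 35.6 CPM in RPB5 (log2 fold change 1.24 ± 0.17, n = 2 against 2, adjusted p = 3.96e-08 by edgeR). In RPB8 it rose from 13.5 and 15.5 CPM to 39.5 and 35.1 CPM (1.37 ± 0.18, adjusted p = 8.89e-09), but on the mitochondrial scale this became -0.14. In RPB1 the values were 21.4 and 16.6 CPM against 37.2 and 35.7 CPM (0.94 ± 0.17, adjusted p = 4.7e-06). The groups did not overlap in any of these comparisons. Med17 rose in RPB10, from 64.5 and 71.2 CPM to 101 and 96.7 CPM (0.54 ± 0.09, adjusted p = 5.9e-06).

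Med11 and Med22 form a dimer in the head. In every line where Med11 fell Med22 was called higher, but in RPB8 both were called higher. With the WT response subtracted, RPB10 was the only line to keep the Med11 fall and the Med22 rise. Whether the responses of Med11 and Med22 differed was not tested. Med11 (chr11:70451919-70453727, mm10, plus strand) fell in 6 lines. Its lowest value was in RPB7, where 15.9 and 23.0 CPM untreated became 4.59 and 5.78 CPM (log2 fold change -1.87 ± 0.21, n = 2 against 2, adjusted p = 2.88e-10 by edgeR). The fall in RPB3 was from 23.7 and 19.2 CPM to 9.84 and 6.79 CPM (-1.36 ± 0.19, adjusted p = 5.49e-08), and that in RPB9 from 18.7 and 19.4 CPM to 8.29 and 5.94 CPM (-1.42 ± 0.20, adjusted p = 1.08e-07). In all 3 lines the IAA libraries were below the lower control. RPB10 went from 25.4 and 23.3 CPM to 11.7 and 12.4 CPM (-1.01 ± 0.17, adjusted p = 6.18e-06) and RPB11 from 15.3 and 16.2 CPM to 10.1 and 8.60 CPM (-0.75 ± 0.19, adjusted p = 0.0027). The RPB11 call was lost without IAA replicate 2 (-0.64, adjusted p = 0.054) and with the WT response subtracted (-0.75, adjusted p = 0.0576). RPB2 and RPB8 had small rises of 0.41 and 0.49, neither of which kept its call in every such fit (without RPB2 untreated replicate 1, 0.26, and without RPB8 IAA replicate 2, 0.33), and both were negative on the mitochondrial scale.

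Med22 rose in 9 lines, 7 of which kept the call with each library left out. The rise was largest in RPB8, from 37.8 and 33.9 CPM to 89.5 and 101 CPM (log2 fold change 1.40 ± 0.11, n = 2 against 2, adjusted p = 6.27e-15 by edgeR), but -0.12 on the mitochondrial scale. In RPB5 it rose from 29.2 and 35.3 CPM to 82.2 and 81.0 CPM (1.33 ± 0.11, adjusted p = 4.52e-14) and in RPB10 from 51.4 and 50.9 CPM to 89.0 and 81.9 CPM (0.74 ± 0.10, adjusted p = 9.93e-08). Both IAA libraries were above both controls in each. The RPB11 values were 30.9 and 40.1 CPM against 52.3 and 49.9 CPM (0.52 ± 0.11, adjusted p = 0.000484), and this call was lost without untreated replicate 1 (0.35), as was that of RPB7 without IAA replicate 2 (0.30). In RPB2 Med22 fell by 0.35 on the log2 scale, a call lost without untreated replicate 2 (-0.33) or IAA replicate 1 (-0.24). Scaling to mitochondrial mRNAs also turned the rises in RPB1, RPB6 and RPB7 negative. After subtracting the WT response, the rises of Med22 in RPB5, RPB8 and RPB10 were called (1.23, 1.30 and 0.64), and those in the other 6 lines were not (0.22 in RPB7 to 0.42 in RPB9).

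Other head genes moved in fewer lines. Med8 fell in 6 lines (4 of them with every library left out in turn) and rose in none, with 50.5 and 54.4 CPM against 22.6 and 22.5 CPM in RPB5 (log2 fold change -1.22 ± 0.15, n = 2 against 2, adjusted p = 1.76e-09 by edgeR). Its values in RPB8 were 57.7 and 49.3 CPM against 20.02 and 21.5 CPM (-1.37 ± 0.16, adjusted p = 5.81e-10). Med28 fell in RPB1, RPB2 and RPB6, and its RPB1 libraries went from 57.7 and 48.7 CPM to 26.9 and 23.9 CPM (-1.07 ± 0.15, adjusted p = 2.17e-08). Med30 stood out for a rise in RPB2, from 28.6 and 40.0 CPM to 82.8 and 98.8 CPM (1.39 ± 0.16, adjusted p = 9.19e-11), and in RPB6, from 27.6 and 34.6 CPM to 78.5 and 62.1 CPM (1.17 ± 0.16, adjusted p = 7.97e-09). On the mitochondrial scale these were -0.78 and -0.80. Med29 rose in RPB9, from 22.7 and 21.2 CPM to 38.7 and 33.4 CPM (0.71 ± 0.15, adjusted p = 0.000149). Med27 lay between -0.49 (RPB10) and 0.88 (RPB2), with 4 lines called higher and 1 lower, but the calls in RPB3 (0.28 to 0.46 in the 4 fits), RPB7 (0.32 without untreated replicate 1) and RPB10 (-0.36 without IAA replicate 2) did not all hold with 1 library left out.

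The middle module, which reaches toward the initiating polymerase, split by gene in RPB2 and RPB6. All 9 of its genes were called in each of these lines, 3 higher and 6 lower. Med4 (chr14:73510025-73518849, mm10, plus strand) was at 57.2 and 59.0 CPM in untreated RPB2 cells and at 4.28 and 5.13 CPM after IAA (log2 fold change -3.62 ± 0.21, n = 2 against 2, adjusted p = 6.82e-20 by edgeR). In RPB6 it went from 43.2 and 46.0 CPM to 4.31 and 6.75 CPM (-3.01 ± 0.19, adjusted p = 1.89e-18). The mean after IAA was 12.3 times lower in RPB2 and 8.06 times lower in RPB6. In 7 other lines Med4 rose instead, and all 9 calls held with each library left out.

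These rises of Med4 were smaller. Its values were 52.3 and 44.2 CPM against 75.7 and 66.3 CPM in RPB3 (log2 fold change 0.56 ± 0.11, n = 2 against 2, adjusted p = 3.27e-05 by edgeR). They were 50.9 and 59.0 CPM against 83.1 and 73.5 CPM in RPB7 (0.51 ± 0.11, adjusted p = 8.8e-05) and 41.8 and 40.8 CPM against 58.7 and 64.5 CPM in RPB9 (0.58 ± 0.11, adjusted p = 4.68e-05). In RPB11 they were 35.6 and 40.6 CPM against 57.4 and 57.3 CPM (0.58 ± 0.11, adjusted p = 0.000104). The IAA libraries lay above the controls in all 4 lines. Among the lines with a rise, RPB5 and RPB8 (0.47 and 0.97) were negative on the mitochondrial scale (-0.07 and -0.55).

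**Figure D2:**
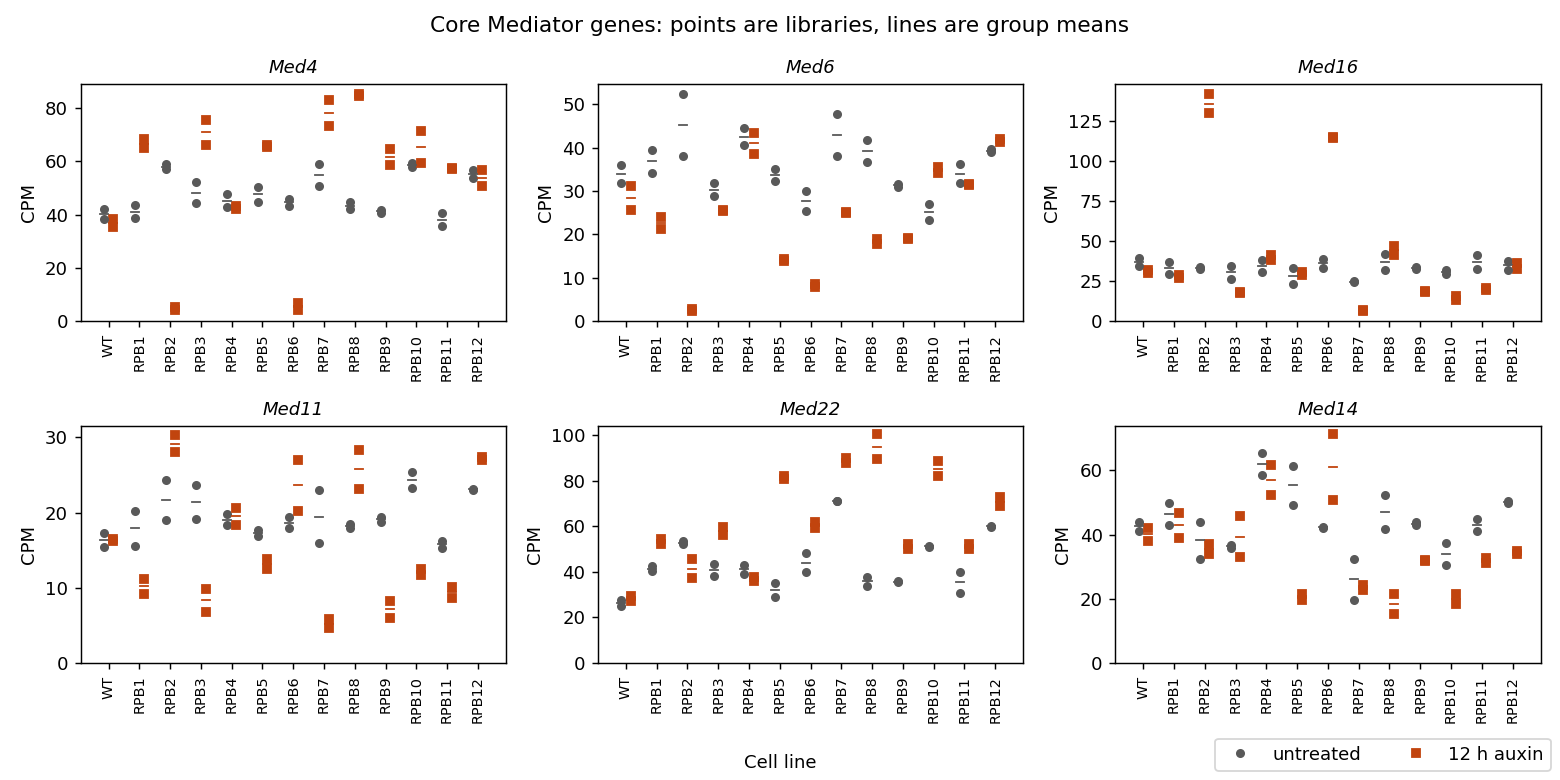
CPM (vertical axes, from 0) of Med4, Med6, Med16, Med11, Med22 and Med14 in the 13 lines (horizontal axes), with untreated libraries as grey circles, 12 h auxin libraries as orange-red squares and group means as short lines. The auxin libraries of RPB2 and RPB6 sit at 4.28 to 6.75 CPM for Med4, and those of the same lines at 115 to 142 CPM for Med16, a rise that is negative on the mitochondrial scale.

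Med7 and Med31, neighbours of Med4 in the middle module, fell with it. Med31 was at 13.3 and 15.5 CPM in untreated RPB2 and at 1.43 and 1.40 CPM after IAA, which is 3 counts in each library (log2 fold change -3.34 ± 0.38, n = 2 against 2, adjusted p = 1.55e-10 by edgeR). In RPB6 it was at 14.2 and 9.46 CPM, then at 0.994 and 2.03 CPM (-2.95 ± 0.35, adjusted p = 3.97e-10). These low counts limit the precision, as the SE shows. Med7 fell in RPB6 from 44.8 CPM in both libraries to 7.95 and 13.5 CPM (-2.06 ± 0.20, adjusted p = 1.26e-12), and its log2 fold change in RPB2 was -2.70. In RPB8, by contrast, Med7 and Med31 were called higher (1.24 and 0.58), and both were negative on the mitochondrial scale. Med31 in RPB3 went from 17.5 and 15.9 CPM to 10.8 and 11.6 CPM (-0.58 ± 0.18, adjusted p = 0.00628). That call was lost without untreated replicate 1 (-0.51) or IAA replicate 1 (-0.53), or with the WT response subtracted (-0.43).

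Med21, the partner of Med7 in the hinge of the middle module, rose in 7 lines and fell in RPB2, RPB5 and RPB6 (-1.42, -0.42 and -0.91). The rise in RPB1 was from 43.7 and 40.9 CPM to 88.1 and 81.6 CPM (log2 fold change 1.00 ± 0.12, n = 2 against 2, adjusted p = 1.39e-09 by edgeR). In RPB10 it was from 57.9 and 55.2 CPM to 108 and 100.2 CPM (0.88 ± 0.11, adjusted p = 1.98e-08), and in RPB7 from 52.1 and 69.6 CPM to 107 and 104 CPM (0.80 ± 0.11, adjusted p = 9.49e-08). In these lines the libraries of each condition stayed apart. RPB9 and RPB3 had rises of 0.66 and 0.61, from 45.4 and 48.2 CPM to 74.7 and 72.9 CPM and from 55.8 and 51.4 CPM to 81.0 and 82.5 CPM. The RPB5 call was lost without untreated replicate 1 (-0.25) and the RPB11 call (0.41) without untreated replicate 2 (0.24) or IAA replicate 2 (0.38), and the RPB8 rise was negative on the mitochondrial scale.

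Med26, which links Mediator to elongation factors and is absent when the kinase module is bound, rose in 5 lines and fell in RPB2, RPB6 and RPB8. The rise in RPB1 was from 36.8 and 42.6 CPM to 89.9 and 81.2 CPM (log2 fold change 1.11 ± 0.11, n = 2 against 2, adjusted p = 3.53e-12 by edgeR). In RPB5 it was from 40.2 and 38.8 CPM to 76.1 and 77.8 CPM (0.96 ± 0.11, adjusted p = 2.33e-10) and in RPB7 from 44.2 and 39.7 CPM to 69.0 and 63.7 CPM (0.66 ± 0.11, adjusted p = 1.5e-06). All these IAA libraries were above their controls. The falls were -1.38 in RPB2, -1.85 in RPB6 and -1.10 in RPB8, and each held with every library left out. The rise in RPB3, 0.32, did not (0.23 without untreated replicate 1). Med26 overlaps the gene model Gm28019 on its strand.

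Med10, near the hinge, was called higher in 9 lines, although on the mitochondrial scale RPB1, RPB2 and RPB6 were negative. Its largest value was in RPB8, from 44.2 and 40.3 CPM to 158 and 153 CPM, a mean 3.68 times higher (log2 fold change 1.88 ± 0.12, n = 2 against 2, adjusted p = 1.48e-18 by edgeR). This was the single called rise of RPB8 that stayed positive on the mitochondrial scale. In RPB11 the values were 37.4 and 38.3 CPM against 54.8 and 51.1 CPM (0.48 ± 0.12, adjusted p = 0.00248), a call lost with the WT response subtracted (0.41), as were those of Med10 in RPB1, RPB2, RPB3, RPB9 and RPB10. The calls of Med10 in RPB3 and RPB9 were also lost with 1 library left out (0.32 without RPB3 untreated replicate 2 and 0.27 without RPB9 untreated replicate 1). Med1, the subunit best known for contacting nuclear receptors, was called lower in 7 lines and higher in none, with log2 fold changes of -0.72 (RPB2) to -0.28 (RPB5) among them. The RPB3 value, -0.41, was positive on the mitochondrial scale (0.32), and the calls in RPB5 and RPB9 were lost in some leave-one-out fits (to -0.15 without RPB5 IAA replicate 1 and -0.35 without RPB9 IAA replicate 1). Med9 reached its highest value, 1.00, in RPB6, and Med19 lay between -0.68 (RPB1) and 0.77 (RPB2), both rises being negative on the mitochondrial scale.

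Med14, the backbone, fell in RPB5, RPB8, RPB9, RPB10 and RPB12 and rose in RPB6. In RPB5 it went from 61.4 and 49.3 CPM to 19.5 and 21.4 CPM (log2 fold change -1.43 ± 0.18, n = 2 against 2, adjusted p = 4.45e-09 by edgeR), and in RPB8 from 41.8 and 52.4 CPM to 21.5 and 15.3 CPM (-1.34 ± 0.20, adjusted p = 1.46e-07). RPB10 had a log2 fold change of -0.76. In these 3 lines the call held with each library left out. In RPB12 the libraries were at 49.7 and 50.6 CPM untreated and at 33.9 and 34.9 CPM after IAA (-0.54 ± 0.17, adjusted p = 0.0459), and the call was lost with any of the 4 libraries left out (-0.56 to -0.52), with DESeq2, with total-count scaling and with a replicate block. The RPB9 fall of -0.44 was likewise lost in all 4 such fits (-0.47 to -0.43), and the rise in RPB6, 0.53, without IAA replicate 1 (0.21).

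The tail, where activators bind, moved upward under TMM in RPB2 and RPB6 except for Med23, though not on the mitochondrial scale. Of its 5 genes 4 rose and 1 fell in each of these lines, and on the mitochondrial scale all 5 were lower. Med25 rose in RPB2 from 153 CPM in both libraries to 488 and 527 CPM (log2 fold change 1.73 ± 0.09, n = 2 against 2, adjusted p = 5.04e-22 by edgeR, -0.46 on the mitochondrial scale). In RPB6 it rose from 129 and 131 CPM to 384 and 387 CPM (1.57 ± 0.09, adjusted p = 3.12e-20, -0.40 on the mitochondrial scale). Med23, a tail subunit known as the target of MAP kinase-driven activators, fell by 2.64 and 1.30 in the same lines. Med24 and Med15 were higher by 1.04 and 0.42 in RPB2 and by 0.80 and 1.10 in RPB6, all negative on the mitochondrial scale. The Med15 call in RPB2 was lost without untreated replicate 2 or IAA replicate 2 (0.31 in both).

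Med16 (chr10:79894708-79908923, mm10, minus strand), a tail subunit that connects the tail to the core, had the highest fold change of any member. It rose in RPB2 from 33.7 and 32.2 CPM to 130 and 142 CPM (log2 fold change 2.04 ± 0.14, n = 2 against 2, adjusted p = 1.21e-17 by edgeR) and in RPB6 from 38.7 and 33.3 CPM to 115 CPM in both libraries (1.67 ± 0.14, adjusted p = 5.39e-15). On the mitochondrial scale these were -0.15 and -0.30. In 5 lines it fell. The lowest levels were in RPB7, at 24.1 and 25.1 CPM untreated and 6.79 and 6.37 CPM after IAA (-1.90 ± 0.19, adjusted p = 2.85e-11).

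The other 4 falls of Med16 were smaller. The values were 29.6 and 32.1 CPM against 13.3 and 15.4 CPM in RPB10 (log2 fold change -1.10 ± 0.16, n = 2 against 2, adjusted p = 4.12e-07 by edgeR) and 32.5 and 41.0 CPM against 20.6 and 19.2 CPM in RPB11 (-0.89 ± 0.15, adjusted p = 1.24e-05). They were 34.0 and 32.8 CPM against 19.0 and 18.3 CPM in RPB9 (-0.84 ± 0.15, adjusted p = 2.47e-05) and 34.6 and 26.04 CPM against 18.0 and 17.6 CPM in RPB3 (-0.77 ± 0.16, adjusted p = 7.84e-05). The groups did not overlap in any of them, and all 7 Med16 calls held with each library left out, although the one in RPB3 was lost with the WT response subtracted (-0.52, adjusted p = 0.0673). The lines in which Med16 fell, RPB3, RPB7, RPB9, RPB10 and RPB11, are 5 of the 6 in which Med11 fell. Among these the Med11 call in RPB11 was lost with the WT response subtracted (-0.75). In RPB11 Med24 also fell, from 130 and 126 CPM to 98.2 and 101 CPM (-0.36 ± 0.09, adjusted p = 0.00305).

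In the kinase module Cdk8 was lower after IAA in every line but RPB4 and RPB12, and it was not called in WT. The gene lies at chr5:146231230-146302874 (mm10, plus strand). Its lowest levels were in RPB2, where 85.4 and 84.5 CPM became 23.8 and 21.9 CPM (log2 fold change -1.89 ± 0.13, n = 2 against 2, adjusted p = 1.17e-17 by edgeR). RPB8 went from 98.4 and 98.9 CPM to 29.5 and 30.3 CPM (-1.72 ± 0.11, adjusted p = 3.32e-18) and RPB6 from 103 and 96.5 CPM to 33.8 and 41.2 CPM (-1.41 ± 0.11, adjusted p = 6.98e-16). The libraries of both conditions were far apart in these lines. In RPB5 the values were 104 and 102 CPM against 47.6 and 56.6 CPM (-0.98 ± 0.10, adjusted p = 3.15e-12) and in RPB1 96.7 and 97.8 CPM against 64.1 and 62.3 CPM (-0.62 ± 0.09, adjusted p = 1.53e-07).

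The remaining 5 falls of Cdk8 were small, with log2 fold changes of -0.39 in RPB9, -0.31 in RPB3, -0.31 in RPB11, -0.28 in RPB7 and -0.24 in RPB10. Those in RPB7, RPB10 and RPB11 were lost in fits without 1 library (-0.18 without RPB7 untreated replicate 1, -0.24 without RPB11 untreated replicate 1, and in all 4 fits of RPB10, -0.26 to -0.20), and the one in RPB3 was 0.47 on the mitochondrial scale. In RPB4, RPB12 and WT the log2 fold changes were -0.20, -0.19 and 0.08 (adjusted p 0.4, 0.28 and 0.776).

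Cdk19, the paralogous kinase, did not follow Cdk8 in every line. It fell in RPB2, from 23.7 and 18.0 CPM to 5.71 and 6.06 CPM (log2 fold change -1.81 ± 0.26, n = 2 against 2, adjusted p = 4.06e-08 by edgeR), and in RPB6, from 26.2 and 28.2 CPM to 9.27 and 8.44 CPM (-1.62 ± 0.20, adjusted p = 1.95e-09). It also fell in RPB8 (-0.75) and RPB10 (-0.57), the latter not without IAA replicate 1 (-0.40). In RPB5, where Cdk8 fell, Cdk19 rose from 27.7 and 27.99 CPM to 47.4 and 54.5 CPM (0.87 ± 0.14, adjusted p = 5.83e-07). Both IAA libraries of RPB5 were above both controls. Smaller rises in RPB1 and RPB9, both 0.37, were each lost in 3 of 4 fits without 1 library (down to 0.22 without RPB1 untreated replicate 1 and 0.21 without RPB9 IAA replicate 2), and the RPB1 value was -0.20 on the mitochondrial scale. With the WT response subtracted both were 0.10 and not called.

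Per kilobase of exon, Cdk8 exceeded Cdk19 in every untreated library of the 12 h set, by 1.34-fold in the lowest (RPB7 replicate 1) to 2.79-fold in the highest (RPB2 replicate 2). After IAA the ratio was 0.597 and 0.618 in the RPB5 libraries. Which kinase mRNA was the higher there depends on the length used, since the CPM of both genes were nearly equal. The annotated exons cover 9.832 kb for Cdk8 and 5.846 kb for Cdk19, but the longest coding transcripts have 2973 and 5807 bases. Only the change of the ratio within a line is free of this choice. It was 1.02 in both RPB1 libraries, from 2.26 and 1.84 untreated, and 1.04 and 1.38 in RPB8. In RPB2 the ratio stayed at 2.48 and 2.15, against 2.14 and 2.79 untreated, since both genes fell. Where neither gene was called the ratio was also lower after IAA, at 1.69 and 1.65 in WT (1.93 and 1.86 untreated), 1.51 and 1.59 in RPB4 (2.02 and 2.19) and 1.48 and 1.30 in RPB12 (2.13 and 1.86), and in RPB7, where Cdk8 fell, it was 0.997 and 1.11 (1.34 and 1.55).

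**Figure D3:**
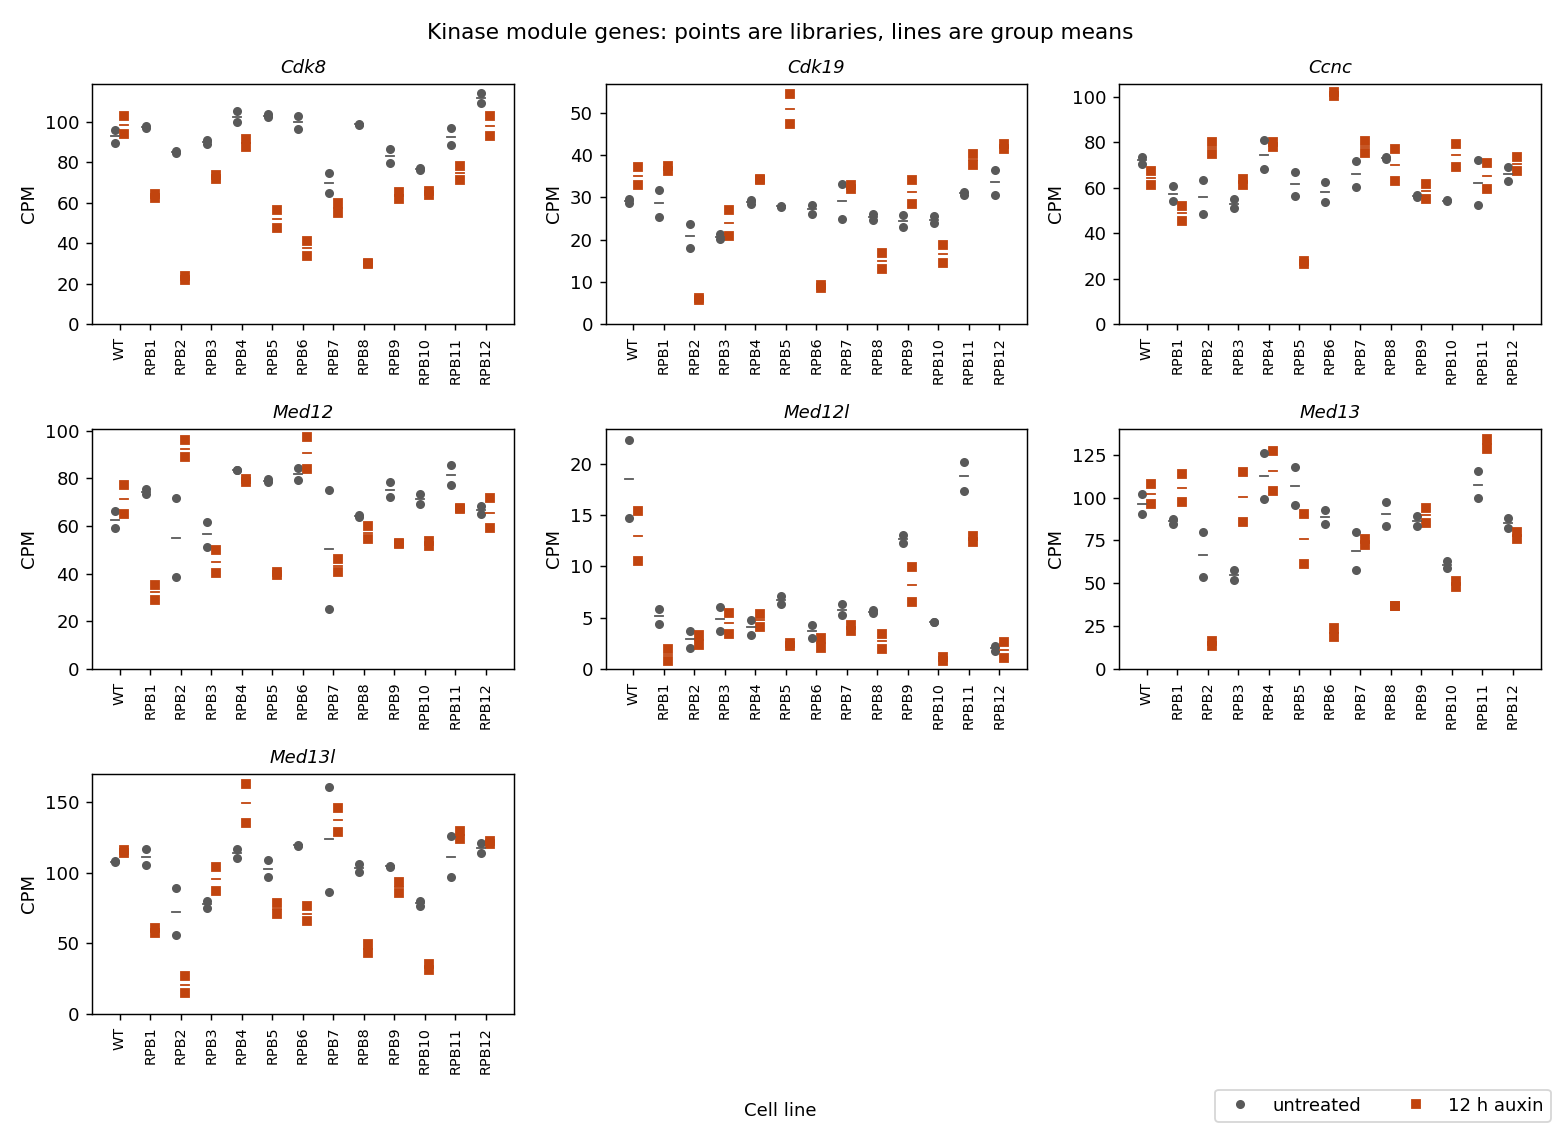
CPM (vertical axes, from 0) of the 7 kinase module genes in the 13 lines (horizontal axes), with untreated libraries as grey circles, 12 h auxin libraries as orange-red squares and group means as short lines. In RPB5 Cdk8 drops to 47.6 and 56.6 CPM while Cdk19 climbs to 47.4 and 54.5 CPM, and Med12l is high in WT, RPB9 and RPB11.

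Ccnc, the cyclin of both kinases, fell in RPB5, from 66.7 and 56.1 CPM to 26.2 and 27.9 CPM (log2 fold change -1.177 ± 0.15, n = 2 against 2, adjusted p = 2.14e-09 by edgeR). It rose in RPB6, from 62.7 and 53.7 CPM to 102 and 100 CPM (0.80 ± 0.13, adjusted p = 7.08e-07), which was -1.17 on the mitochondrial scale. Rises in RPB2 (0.46) and RPB10 (0.45) were not called without RPB2 untreated replicate 1 (0.29) or RPB2 IAA replicate 1 (0.38) and without RPB10 IAA replicate 2 (0.36). The RPB2 value was -0.40 on total counts and -1.72 on the mitochondrial scale.

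Med12, which activates the kinase, fell in RPB1 from 73.5 and 75.6 CPM to 29.1 and 35.2 CPM (log2 fold change -1.21 ± 0.23, n = 2 against 2, adjusted p = 1.03e-05 by edgeR). In RPB5 it fell from 78.6 and 79.6 CPM to 39.3 and 40.5 CPM (-0.99 ± 0.22, adjusted p = 0.000167). The value in RPB9, -0.51, lost its call in all 4 fits without 1 library (-0.57 to -0.45). In RPB2 the untreated libraries were far apart, at 71.7 and 38.4 CPM, and the rise to 96.1 and 89.0 CPM (0.77) was 0.37 and not called without untreated replicate 2. It was negative on total counts (-0.09) and on the mitochondrial scale (-1.46). Med12 overlaps the gene model Gm21986 on its strand.

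Med12l fell in 5 lines from a low level. The libraries were at 4.58 and 4.63 CPM against 0.741 and 1.175 CPM in RPB10 (log2 fold change -2.22 ± 0.46, n = 2 against 2, adjusted p = 0.000111 by edgeR), at 4.41 and 5.88 CPM against 1.94 and 0.748 CPM in RPB1 (-1.92 ± 0.45, adjusted p = 0.000205) and at 6.37 and 7.12 CPM against 2.24 and 2.57 CPM in RPB5 (-1.49 ± 0.37, adjusted p = 0.000624). The groups did not overlap in these lines. The calls in RPB8 (-1.03) and RPB9 (-0.62) were each lost in 3 of 4 fits without 1 library, with -0.72 without RPB8 IAA replicate 2 and -0.36 without RPB9 IAA replicate 1. In WT itself Med12l had a log2 fold change of -0.51 (adjusted p = 0.305). After subtracting it the values of Med12l were -1.71 in RPB10 and -1.41 in RPB1, still called, and -0.98 in RPB5, -0.51 in RPB8 and -0.11 in RPB9, not called (adjusted p 0.0712, 0.395 and 0.882).

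Med13 and Med13l tether the module to the core. Med13 fell most in RPB2 and RPB6. It went from 79.7 and 53.5 CPM to 13.3 and 16.3 CPM in RPB2 (log2 fold change -2.15 ± 0.25, n = 2 against 2, adjusted p = 1.43e-10 by edgeR) and from 92.8 and 84.3 CPM to 23.8 and 18.6 CPM in RPB6 (-2.06 ± 0.20, adjusted p = 2.72e-12). In RPB8 it fell by 1.30. In RPB3 it rose instead, from 57.8 and 51.9 CPM to 85.9 and 115 CPM (0.87 ± 0.16, adjusted p = 1.04e-05). That rise was 0.63 without IAA replicate 2 of RPB3 and 1.06 without IAA replicate 1, still called. The Med13 fall in RPB5 (-0.50) was lost without untreated replicate 1 (-0.34) or IAA replicate 1 (-0.24).

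Med13l fell in 6 lines and rose in none. In RPB10 it went from 80.0 and 76.7 CPM to 30.9 and 35.1 CPM (log2 fold change -1.24 ± 0.18, n = 2 against 2, adjusted p = 3.54e-07 by edgeR) and in RPB1 from 106 and 117 CPM to 57.0 and 61.2 CPM (-0.91 ± 0.17, adjusted p = 1.07e-05). Med13 was not called in either line (-0.29 and 0.30). Per kilobase, the ratio of Med13 to Med13l accordingly went from 1.12 and 1.09 to 2.37 and 1.95 in RPB10 and from 1.14 and 1.07 to 2.85 and 2.27 in RPB1, while in RPB6 it went from 1.11 and 1.00 to 0.444 and 0.403. The falls of Med13l in RPB2, RPB6 and RPB8 were -1.79, -0.75 and -1.15. The one in RPB5 (-0.46) was lost without untreated replicate 1 (-0.38) or IAA replicate 1 (-0.39).

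As a module, 6 of the 7 kinase genes fell and 1 rose in RPB5, and 5 fell with none rising in RPB8. The counts were 4 lower and 1 higher in RPB1, RPB6 and RPB10, 4 lower and 2 higher in RPB2, and 3 lower and 1 higher in RPB9. Of all genes 28.1% were lower and 31% higher in RPB5, 30.2% and 31.5% in RPB8, 30.5% and 35.8% in RPB1, 33.4% and 27.3% in RPB6, 21.2% and 18.2% in RPB10, 34% and 27.9% in RPB2 and 18% and 16.8% in RPB9. Among the falls counted, those of Med13 and Med13l in RPB5, Med12l in RPB8 and RPB9, Med12 in RPB9 and Cdk8 and Cdk19 in RPB10 were lost when 1 library was left out. The median log2 fold change of the 7 genes was -0.99 in RPB5 and -1.03 in RPB8, where the 9 middle genes had medians of 0.34 and 0.58. In RPB2 the kinase genes had a median of -1.79 and the tail genes 1.04. These medians describe the lists and were not tested against each other. The kinase genes span 23436 to 312858 bases and the middle genes 3869 to 53710 bases, so that module and gene length cannot be told apart here.

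Gene length went with the changes in some lines. In RPB8 the 13 members that rose had a median annotated length of 8186 bases and the 14 that fell 62678 bases. Spearman's rho between length and log2 fold change was -0.70 over the 33 genes and -0.47 over 14245 genes with a value (79.5% of those tested, so that this value describes the matched genes only). In RPB10 rho was -0.53 over the members and -0.36 over all genes, and in RPB5 -0.42 and -0.27. In RPB2 and RPB6 it was 0.14 and 0.13 over the members, against -0.11 and -0.10 over all genes, and in WT, where no member was called, 0.33 against -0.01. These are correlations across genes, which share libraries and are no independent replicates, and the part of length in the changes was not tested.

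**Figure D4:**
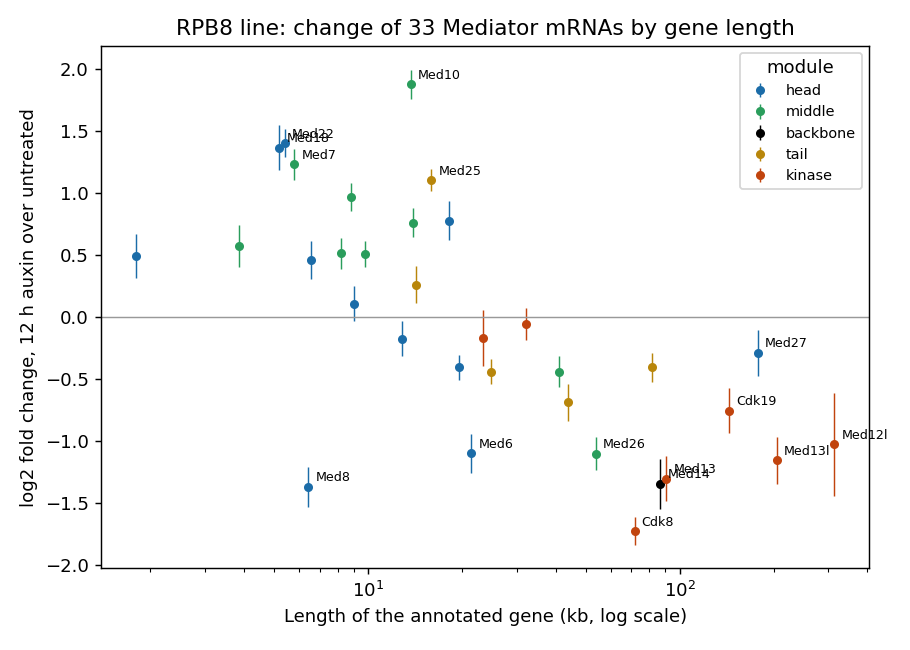
Log2 fold change in RPB8 after 12 h of auxin (vertical axis, bars 1 SE) against the annotated gene length in kb (horizontal axis, log scale) for the 33 genes, coloured by module. Most rises lie to the left and most falls to the right, with Med8 an exception among short genes at -1.37, and of the rises only Med10 stays positive on the mitochondrial scale.

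Within 1 h of IAA, RPB1 was the single line of 3 with called members. Of the 33, 3 rose and 9 fell in RPB1 (background 11% and 13.9% of 15658 genes). None was called in RPB3 (0.00639% and 0.351%) or RPB6 (0.939% and 0.6%) by edgeR or DESeq2, and 3 and 5 had an unadjusted p under 0.05. Med29 of the head rose in RPB1 from 9.56 and 12.0 CPM to 18.0 and 17.3 CPM (log2 fold change 0.71 ± 0.18, n = 2 against 2, adjusted p = 0.00834 by edgeR), Med9 of the middle from 48.1 and 53.5 CPM to 74.8 and 70.8 CPM (0.52 ± 0.11, adjusted p = 0.00216) and Med25 of the tail from 114 and 109 CPM to 144 and 138 CPM (0.34 ± 0.07, adjusted p = 0.00325). The 1 h libraries were above the 0 h libraries in each.

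The lowest values at 1 h were Med18, Ccnc and Med14. Med18 went from 16.8 and 14.1 CPM to 10.3 and 9.30 CPM (log2 fold change -0.66 ± 0.15, n = 2 against 2, adjusted p = 0.00361 by edgeR). Ccnc fell from 76.7 and 71.1 CPM to 52.6 and 52.4 CPM (-0.49 ± 0.09, adjusted p = 0.001) and Med14 from 75.2 and 69.2 CPM to 53.2 and 51.7 CPM (-0.46 ± 0.13, adjusted p = 0.0134). Med13 (-0.45), Med20 (-0.42), Cdk19 (-0.40), Med26 (-0.30), Med7 (-0.30) and Med21 (-0.27) were also called. Leaving out 0 h replicate 1 reduced the 12 calls to 2 (Med25 and Ccnc), 1 h replicate 1 to 4, 1 h replicate 2 to 6 and 0 h replicate 2 to 10, and Med25 and Ccnc held in all 4 of these fits. Without 0 h replicate 1, Med18, Med29, Med9, Med13 and Med14 had log2 fold changes of -0.53, 0.56, 0.45, -0.40 and -0.40. In the 12 h comparison of the same line Med18, Med21 and Med26 rose, in the direction opposite to that at 1 h, but the sets were fitted apart and no test of the difference in time was made.

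In RPB3 and RPB6 at 1 h no member passed the threshold, and the members with the lowest value in RPB3 and the highest in RPB6 were as follows. Med18 went from 16.2 and 16.8 CPM to 11.9 and 10.4 CPM in RPB3 (log2 fold change -0.57 ± 0.14, adjusted p = 0.0944 by edgeR), and Med9 from 43.3 and 45.9 CPM to 56.3 and 54.3 CPM in RPB6 (0.31 ± 0.11, adjusted p = 0.15). The members lay between -0.57 and 0.39 in RPB3 and between -0.30 and 0.31 in RPB6. Across the 33 genes Spearman's rho between GC content of the longest coding transcript and log2 fold change was 0.63 in RPB1, 0.11 in RPB3 and 0.58 in RPB6, against 0.57, 0.015 and 0.47 over 13408 genes (85.6% of those tested). GC content ran from 35.53% (Ccnc) to 60.18% (Med16), and its part in the changes was not tested.

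**Figure D5:**
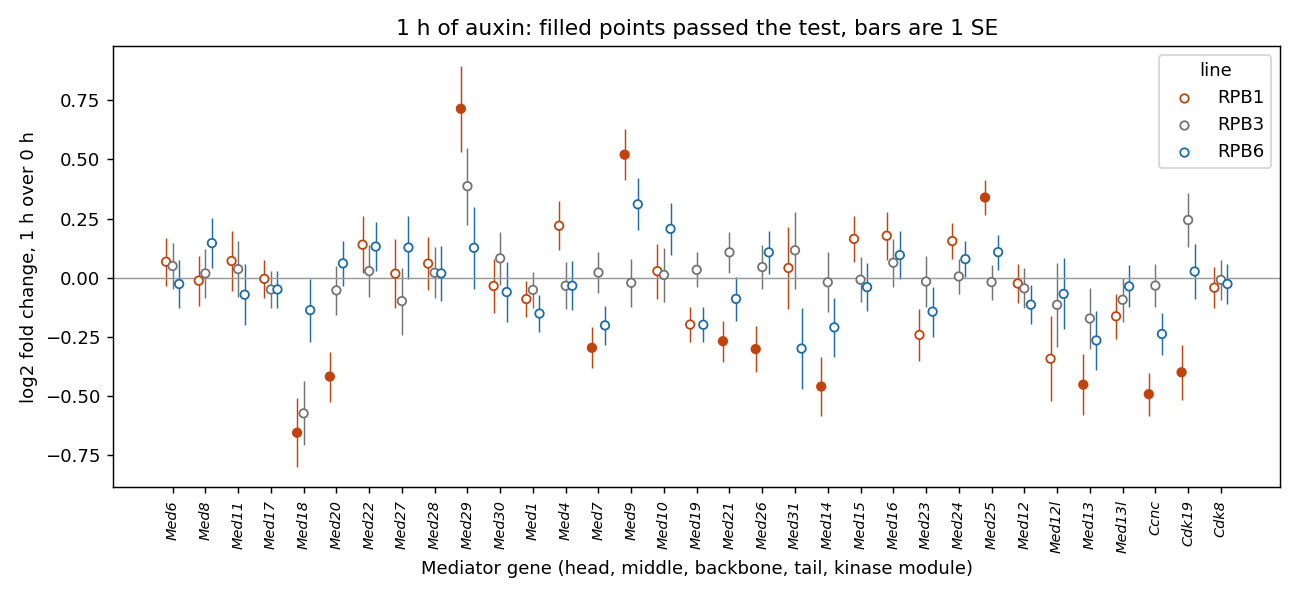
Log2 fold changes of the 33 genes (horizontal axis, by module) at 1 h of auxin over 0 h (vertical axis, bars 1 SE) in RPB1, RPB3 and RPB6, with filled points where the adjusted p was under 0.05. The 12 filled points all belong to RPB1, from Med18 at -0.66 to Med29 at 0.71.

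Responses at 12 h were also compared directly between pairs of lines. RPB2 and RPB1, the catalytic pair of large subunits, differed for 29 of the 33 genes, 12 with a higher response in RPB2 and 17 with a lower one (27.5% and 35.1% of all genes). Med16 differed by 2.30 ± 0.21 on the log2 scale (2.04 in RPB2, -0.25 in RPB1, adjusted p = 1.75e-13 by edgeR) and Med30 by 2.04 ± 0.23 (1.39 and -0.66, adjusted p = 1.92e-10). Med4 differed by -4.32 ± 0.24 (-3.62 and 0.70, adjusted p = 5.9e-20) and Med18 by -4.13 ± 0.39 (-3.20 and 0.94, adjusted p = 5.32e-13). So Med4 and Med18 rose in 1 line and fell in the other. On the mitochondrial scale no member had a higher response in RPB2 than in RPB1, and 24 had a lower one, and on total counts 6 and 22 did.

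RPB7 and RPB4, which form the stalk of Pol II, differed for 10 members, 6 higher and 4 lower in RPB7 (background 10.8% and 13.7%, and 0 and 4 members on the mitochondrial scale). Med21 and Med29 differed by 0.76 ± 0.17 (adjusted p = 0.000718 by edgeR) and 0.77 ± 0.21 (adjusted p = 0.00432). Med16 and Med11 differed by -2.10 ± 0.24 (adjusted p = 4.08e-09) and -1.91 ± 0.27 (adjusted p = 5.1e-07), since they fell in RPB7 while their RPB4 log2 fold changes were 0.20 and 0.04. RPB3 and RPB11, the heterodimer of the assembly platform, showed no called difference for any of the 33 genes by edgeR or DESeq2 (5.5% and 6.84% of all genes were called). The medians of the 33 genes were 0.00 and 0.08, and up to 3 members were called when 1 library was left out.

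Genes outside Mediator that act with it were described by the same counts. Of 10 genes of cohesin and its loader, 9 fell and 1 rose in RPB1, 8 fell and 1 rose in RPB2, and 9 fell and 1 rose in RPB8. Of all genes 30.5%, 34% and 30.2% fell in these lines. Rad21, the cohesin kleisin, had a log2 fold change of -1.81 ± 0.10 in RPB1 (adjusted p = 6.41e-20 by edgeR) and -1.95 ± 0.11 in RPB2 (adjusted p = 7.13e-20). Of 12 enhancer coactivators, 11 fell in RPB8 and in RPB10, 10 fell and 2 rose in RPB2 and in RPB6, and 8 fell in RPB1, against 30.2%, 21.2%, 34%, 33.4% and 30.5% of all genes in RPB8, RPB10, RPB2, RPB6 and RPB1. Their medians were -1.43 (RPB8), -0.65 (RPB10), -1.50 (RPB2), -1.35 (RPB6) and -0.58 (RPB1), beside all-gene medians of 0.04, 0.00, -0.19, -0.13 and 0.09. At 1 h in RPB1 6 of the 10 cohesin genes fell (background 13.9%), among them Wapl, which had the smallest adjusted p (-0.37 ± 0.07, adjusted p = 0.00157), while 1 of the coactivators rose and 1 fell.

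Of 30 Pol II initiation factors tested at 12 h, 13 rose and 12 fell in RPB1, and 12 rose and 14 fell in RPB2. Of all genes 35.8% rose and 30.5% fell in RPB1, and 27.9% rose and 34% fell in RPB2. In RPB7 15 rose and 3 fell (20.2% and 21.1% of all genes), and in RPB9 12 and 3 (16.8% and 18%). In RPB11 9 rose and 2 fell (10.6% and 13.1%), and in RPB10 9 and 5 (18.2% and 21.2%). RPB3 had 10 and 8 (24.4% and 23.3%), and RPB5 11 and 13 (31% and 28.1%). RPB6 had 14 and 13 (27.3% and 33.4%), and RPB8 13 and 11 (31.5% and 30.2%). None was called in WT, RPB4 or RPB12. Gtf2b, which places Pol II at the start site, rose in RPB1 by 2.19 ± 0.14 on the log2 scale (19.0 to 86.6 CPM, adjusted p = 1.38e-18 by edgeR), and Cdk7, the kinase of TFIIH, fell in RPB2 by 2.85 ± 0.16 (71.1 to 9.9 CPM, adjusted p = 4.11e-20). Fbxw7, the ubiquitin ligase subunit that targets MED13 proteins for degradation, rose in RPB1, RPB5 and RPB8 (1.96, 2.21 and 1.81), rose less in RPB3, RPB7, RPB9 and RPB11 (0.98, 0.60, 0.50 and 0.58) and fell in RPB2 and RPB6 (-1.61 and -1.09). Its ligase partners Skp1a and Cul1 had log2 fold changes of 0.58 to 1.73 and -1.39 to -0.30 in RPB1, RPB2, RPB5, RPB6 and RPB8. The shifts of scale given above apply to all these lists, which were fitted under TMM alone, so that their rises in RPB2, RPB6 and RPB8 are relative to the other genes. None of the 4 genes of that list was called in WT, RPB4 or RPB12, nor at 1 h in any line.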

How the data were processed

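The data were mRNA read counts from mouse embryonic stem cells. The authors deposited raw counts per gene for 64 libraries in 1 table (55335 genes, mm10), and 4 further columns that match no sample were not used. Per the submitters' processing notes the tools included featureCounts, STAR, Bowtie2, cutadapt 1.18, DESeq2, SAMtools and deepTools, with builds mm10 and dm6, and Drosophila S2 cells had been added as a spike-in per the labels' protocols. For the strand setting, the counting annotation and multi-mapping reads: not given in the sources used here. A poly(A) library is named in the labels for the 12 h samples only.

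Gene names, lengths and overlaps came from GENCODE M21 (55154 genes named), and promoters from RefSeq. The 12 h set (26 groups of 2) and the 0 h and 1 h set (6 groups of 2) were fitted apart with edgeR 4.0.16 in R 4.3.3 (TMM, filterByExpr, quasi-likelihood F-test, Benjamini-Hochberg adjustment over all genes tested, threshold 0.05), leaving 17928 and 15658 genes. The median biological coefficient of variation was 7.04% and 6.97%. All groups of a set shared 1 estimate of the spread. The fits were also run on simulated counts with 200 changed genes, rises and falls in equal number, for RPB4 at 12 h and RPB1 at 1 h. Such counts do not test the TMM scaling where a large share of genes changes. CPM are scaled with TMM, and the SE is the log2 fold change divided by the root of F. No library duplicated another.

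Alternatives were RLE size factors, total counts, scaling to mitochondrial mRNAs, no filter, DESeq2 1.42.0, a replicate block, only the 4 libraries of a line, the response minus that of WT, and each library left out. Fits without 1 library kept the negative binomial trend of the full fit, re-estimated the quasi-likelihood spread, and assume that a lone library varies like the other groups. Full values are given for the 3 highest and 3 lowest called members of each treatment comparison with a mean of at least 5 CPM and groups that do not overlap, for the kinase module, and for the 2 highest and 2 lowest called differences of each pair of lines. Genes outside Mediator are cohesin and its loader, enhancer coactivators, Pol II initiation factors and the degradation factors and partners of the kinase module. Up to 2 genes per list are named, except in the last list, where Fbxw7, Skp1a and Cul1 are. Members and lists were chosen with earlier results of these data known. Intervals and p-values cover only the spread between these libraries.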

Additional observations from a re-analysis of the deposited data

Results flagged for a closer look

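A response that differed between 2 lines, by the interaction term of the edgeR quasi-likelihood fit, flagged 8 results. Between RPB2 and RPB1 the log2 response differed by -4.3152 for Med4, -4.1331 for Med18, 2.2986 for Med16 and 2.0424 for Med30. On the mitochondrial scale no member was called with a higher response in RPB2. Between RPB7 and RPB4 it differed by -2.1043 for Med16, -1.9089 for Med11, 0.7719 for Med29 and 0.7595 for Med21. The cause of these differences was not tested.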

How the results depend on the processing

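Of 113 named changes (105 after treatment and 8 between lines), each kept its direction and its call in 106 cases with DESeq2, 109 with RLE size factors, 107 without a filter on low counts, 109 with a replicate block, 101 on total counts and 59 on mitochondrial mRNAs, and in 100 of 105 with only the 4 libraries of the line. Direction turned in 2 cases on total counts and in 14 on mitochondrial mRNAs, and the cause was not tested. On total counts RPB2 had log2 fold changes of -0.085 for Med12 and -0.398 for Ccnc. On mitochondrial mRNAs RPB2 had -1.464 for Med12, -0.149 for Med16, -0.462 for Med25, -0.776 for Med30 and -1.717 for Ccnc. RPB6 had -0.297 for Med16, -0.404 for Med25, -0.802 for Med30 and -1.172 for Ccnc. RPB1 had -0.195 for Cdk19, RPB3 had 0.085 for Med31 and 0.469 for Cdk8, and RPB8 had -0.141 for Med18 and -0.117 for Med22.

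The number of members called moved by over 1.5 times in these settings. On mitochondrial mRNAs it was 7 in RPB7, 3 in RPB9, 7 in RPB10, 0 in RPB11, 0 in RPB12, 4 in RPB1 at 1 h and 4 for RPB7 against RPB4. After subtracting the WT response it was 7 in RPB3, 9 in RPB7, 10 in RPB9, 4 in RPB11 and 0 in RPB12. With only the 4 libraries of the line it was 1 in WT, 1 in RPB4, 6 in RPB7, 4 in RPB11 and 3 in RPB12. In RPB12 it was 0 with DESeq2, on total counts and with a replicate block, and in RPB4 1 without a filter. For RPB3 against RPB11 it was 1 with RLE size factors, 1 on total counts and 1 without a filter. With 1 library left out the numbers ranged from 10 to 14 in RPB3, 10 to 18 in RPB7, 12 to 14 in RPB9, 6 to 10 in RPB11, 2 to 10 in RPB1 at 1 h, 0 to 2 in RPB3 at 1 h and 0 to 3 for RPB3 against RPB11, and were 0 in all fits of RPB12.

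Libraries of the same number did not deviate together (correlations of -0.196 to 0.089 over the 16 line and time sets), so the replicate block is an alternative and not a pairing. Under the block RPB1 kept 23 members called, RPB2 30, RPB8 27 and RPB12 0. With the numbers crossed in RPB5 and RPB7, a setting chosen after seeing the data, 22 and 16 members were called. Depth limits the lowest levels, such as Med31 in RPB2 after IAA with 3 counts per library.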
